A study of Homo sapiens with 24 samples.

Results

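The growth factor genes PDGFA, PDGFB, PDGFC, FGF2, VEGFB and VEGFC, the FGF carrier gene FGFBP1 and the angiopoietin-like gene ANGPTL4 were followed in SK-MES-1, an established cell line of human squamous cell lung carcinoma. These 8 genes were taken by name, with earlier results of these data known, from 34834 genes with transcripts in the deposited tables. All 8 were among the 17453 genes with enough reads for a test. After 3 hours without serum growth factors, cells of 1 arm received 2 ng/ml TGFβ1 and cells of the other received nothing, and RNA was taken from both arms at 0, 8, 24 and 48 h. Each of the 8 groups had 3 biological replicates, which gives 12 untreated libraries and 12 libraries of the TGFβ1 arm. All of them come from a single cancer cell line, and in such bulk RNA a change in the share of expressing cells cannot be told apart from a change per cell. Depth lay between 46613589 and 77964234 estimated counts per library, and levels are given in TPM, a length-corrected share of all transcripts, summed over the transcripts of a gene.

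Of 11 squamous and epithelial marker genes 7 reached 1 TPM, whereas KRT5, KRT6A, KRT14 and DSG3, keratin and desmoglein genes typical of squamous epithelium, stayed below 0.1 TPM in every group. The summed level of all 11 at 48 h was 1975 to 2030 TPM in untreated cells and 1760 to 1815 TPM with TGFβ1. Of the 7 tested 6 passed the overall test, with KRT17 higher by 4.27 and SOX2 lower by 2.62 on the log2 scale on average, and TP63 and KRT18 called higher at 8 h and lower at 48 h. Of 6 endothelial markers 1 reached 1 TPM (PECAM1). Their summed level was 1.37 to 2.01 TPM in untreated cells at 0 h, and at 48 h 3.26 to 3.48 TPM in untreated cells and 4.58 to 6.12 TPM with TGFβ1, and of 5 tested 4 (PECAM1, VWF, TEK and ERG) were called higher and 0 lower in the overall test. Of 5 leukocyte markers 3 reached 1 TPM. CD68 had group means of up to 34.9 TPM, PTPRC of up to 2.01 TPM and CD14 of up to 1.79 TPM, while CD3E stayed below 0.1 TPM throughout. The summed leukocyte level at 48 h was 12.2 to 14.0 TPM in untreated cells and 9.98 to 10.7 TPM with TGFβ1, and of 3 tested markers 1 (PTPRC) was called lower. The summed level of 7 fibroblast markers was between 203 and 218 TPM in untreated cells at 48 h and between 2084 and 2383 TPM in the TGFβ1 arm, with COL1A1 and COL1A2 called higher and DCN, LUM and THY1 called lower in the overall test by their mean. Among all tested genes 21.0% were called higher and 21.5% lower in that test. The part of these marker lists in the results was not tested. The deposited files carry 4 codes in their names, and the labels do not say what a code stands for. Within an arm, 0 and 8 h share a code, and 24 and 48 h share another, and the arms share none. Anything that goes with the code therefore cannot be told apart from treatment in a difference between the arms at a single time, whereas changes within an arm from 0 to 8 h and from 24 to 48 h stay within a code.

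Platelet-derived growth factors are dimers that bind 2 receptor tyrosine kinases, PDGFRA and PDGFRB, mainly on mesenchymal cells, where they drive proliferation and migration. The A and B chains are activated inside the cell by furin-like proteases, whereas the C chain is secreted with a CUB domain that must be cut off outside the cell. FGF2 is a heparin-binding fibroblast growth factor that is stored on heparan sulfate, and FGFBP1 is a secreted carrier that releases it from the matrix. VEGFB is a ligand of FLT1 (VEGFR1), VEGFC is the classical lymphatic growth factor and a ligand of FLT4 (VEGFR3), and ANGPTL4 is a secreted inhibitor of lipoprotein lipase with reported roles in vessels. Tumour cells often supply such ligands to the stroma around them.

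Start-site sequences are shown for the member with the largest difference between the arms (ANGPTL4), for the member whose time course was closest to it (PDGFA), for a member that differed late (FGFBP1) and for one that was not called (VEGFB). RefSeq promoter entries on GRCh38.p14 matched 6 of the 8 members, namely PDGFA, FGF2, FGFBP1, VEGFB, VEGFC and ANGPTL4. Each line holds the 250 bases before the start site, 5′ to 3′ on the strand of the gene, and capitals mark the SMAD box CAGAC or its reverse complement GTCTG. The windows are chr19:8363905-8364154 (plus strand) for ANGPTL4, chr7:519847-520096 (minus strand) for PDGFA at the start of PDGFA-203, chr4:15938741-15938990 (minus strand) for FGFBP1 and chr11:64234334-64234583 (plus strand) for VEGFB.
ANGPTL4: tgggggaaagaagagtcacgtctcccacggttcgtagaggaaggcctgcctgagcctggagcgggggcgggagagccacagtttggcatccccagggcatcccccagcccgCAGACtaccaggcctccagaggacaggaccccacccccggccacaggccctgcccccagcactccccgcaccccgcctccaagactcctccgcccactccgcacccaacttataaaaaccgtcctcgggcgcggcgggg
PDGFA: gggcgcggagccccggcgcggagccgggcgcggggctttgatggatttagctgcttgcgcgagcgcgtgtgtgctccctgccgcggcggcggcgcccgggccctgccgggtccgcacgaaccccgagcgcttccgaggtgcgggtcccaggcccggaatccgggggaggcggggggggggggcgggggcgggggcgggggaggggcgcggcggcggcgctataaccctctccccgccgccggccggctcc
FGFBP1: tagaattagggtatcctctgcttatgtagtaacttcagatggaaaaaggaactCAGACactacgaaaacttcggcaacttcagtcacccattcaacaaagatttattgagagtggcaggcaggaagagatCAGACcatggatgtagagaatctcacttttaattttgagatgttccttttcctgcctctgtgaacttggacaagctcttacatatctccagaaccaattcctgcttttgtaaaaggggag
VEGFB: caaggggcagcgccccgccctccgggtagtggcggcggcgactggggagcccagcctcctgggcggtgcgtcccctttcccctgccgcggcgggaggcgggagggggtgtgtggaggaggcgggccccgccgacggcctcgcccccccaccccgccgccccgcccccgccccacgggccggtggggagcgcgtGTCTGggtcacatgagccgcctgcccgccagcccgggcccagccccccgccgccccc
CAGAC was found, on either strand, 1 time before ANGPTL4, 2 times before FGFBP1, 1 time before VEGFB and not in the windows of VEGFC, FGF2 and the PDGFA-203 start. RefSeq lists 3 further starts of PDGFA, and the window before the most upstream of them, chr7:520701-520950, holds it 2 times. Of 35116 RefSeq windows of this length 38% hold it. The AP-1 site TGANTCA, present in 6.57% of windows, was in none of the members' windows. The hypoxia response core ACGTG, present in 18.5% of windows, was found before ANGPTL4 and in no other window of a member. It is not marked in the lines above, nor is the GC box. The GC box GGGCGG, present in 42.6% of windows, was found 6 times before VEGFB, 3 times before the PDGFA-203 start, 2 times before ANGPTL4 and not before FGFBP1. GC content ran from 40.8% before FGFBP1 to 82.8% before VEGFB. A match of letters is a description of the window and not a bound site.

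In the comparison of the arms, 6 of the 8 genes were higher in TGFβ1-treated cells and 0 were lower. At 8 h PDGFA, PDGFB, PDGFC and ANGPTL4 had passed an adjusted p of 0.01 (limma voom, Benjamini-Hochberg over all tested genes), and FGFBP1 and VEGFC followed at 24 h and 48 h. FGF2 and VEGFB were not called at any time. Over all tested genes, 9.12% were called higher and 7.26% lower at 8 h, 15.4% higher and 13.8% lower at 24 h, and 16.1% higher and 16.4% lower at 48 h. In the overall test of the 3 differences by a moderated F-test, 21.0% of all tested genes were higher and 21.5% lower, taking the direction from the mean of the 3 differences, and 1.55% had a call in the opposite direction at some time. The same 6 members were called higher, none of them lower at any time, 4 of them (PDGFA, PDGFB, PDGFC and ANGPTL4) by at least 2-fold on average. The median log2 difference of the 8 members in that test was 0.83, against -0.02 for all tested genes. Because the members were chosen with earlier results of these data known, this contrast describes them and is not a test of the set. At 0 h limma voom called 0 members and 0 of all tested genes in either direction (0.0% and 0.0%), while 800 genes had an unadjusted p below 0.05, edgeR's quasi-likelihood test called 0 genes, DESeq2 called 8 and limma on log2(TPM + 0.1) called 1.

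**Figure D1:**
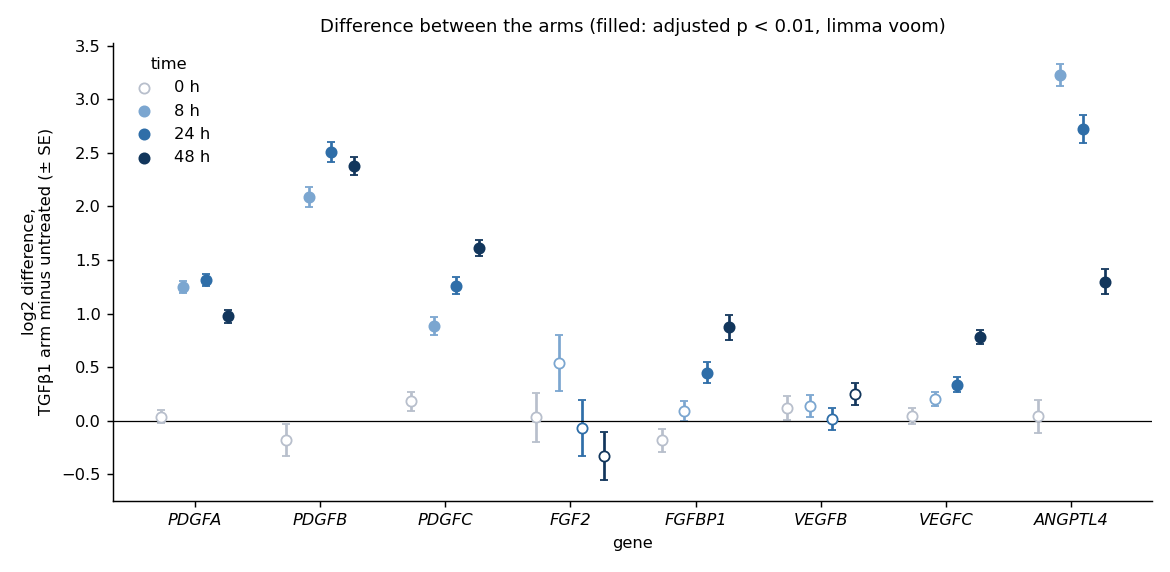
Log2 difference between the TGFβ1 arm and untreated cells (vertical axis, ± SE of the fit, n = 3 per group) for each gene (horizontal axis) at 0, 8, 24 and 48 h. Filled symbols passed an adjusted p of 0.01, and ANGPTL4 went from 3.23 at 8 h to 1.30 at 48 h while PDGFC went from 0.89 to 1.61.

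PDGFA (chr7:497258-520296, minus strand, GRCh38, as are all gene positions here) encodes the A chain, the ligand of PDGFRA. In untreated libraries it stood at 19.9, 17.9 and 18.5 TPM at 0 h, at 24.3, 26.2 and 23.5 TPM at 8 h, at 18.1, 16.6 and 18.1 TPM at 24 h and at 20.0, 19.5 and 18.1 TPM at 48 h. In the TGFβ1 arm the values were 19.5, 15.2 and 20.9 TPM at 0 h, 59.3, 55.7 and 52.2 TPM at 8 h, 44.7, 39.2 and 44 TPM at 24 h and 33.1, 37.7 and 34.1 TPM at 48 h. The arms overlapped at 0 h and were fully separate at each later time, with the peak of the TGFβ1 arm at 8 h. The log2 difference was 1.25 (SE 0.0538) at 8 h, 1.32 (SE 0.0574) at 24 h and 0.97 (SE 0.0584) at 48 h, each with a limma voom adjusted p of 1.1e-11 or lower. In the order of the mean levels, the TGFβ1 groups at 48, 24 and 8 h were each separate from the group below, whereas untreated cells at 0, 24 and 48 h and the TGFβ1 arm at 0 h overlapped with each other.

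PDGFB (chr22:39223359-39244982, minus strand) encodes the B chain, which binds both PDGF receptors and is known for recruiting pericytes. Its untreated levels were 2.04, 2.33 and 2.40 TPM at 0 h, 4.19, 4.74 and 4.13 TPM at 8 h, 5.09, 3.63 and 4.34 TPM at 24 h and 7.21, 6.69 and 6.56 TPM at 48 h. With TGFβ1 they were 1.52, 1.87 and 1.77 TPM at 0 h, 16.1, 16.3 and 14.9 TPM at 8 h, 19.0, 17.9 and 21.2 TPM at 24 h and 32.8, 30.8 and 28.5 TPM at 48 h. At 0 h the TGFβ1 libraries lay just below the untreated ones without overlap, a difference that did not pass the test (log2 difference -0.18, SE 0.149, limma voom adjusted p = 1). From 8 h on all TGFβ1 libraries lay above all untreated ones, by 3.62-fold of the mean TPM at 8 h, 4.45-fold at 24 h and 4.50-fold at 48 h. The log2 differences were 2.09 (SE 0.0909), 2.51 (SE 0.0952) and 2.37 (SE 0.0842). The level of the TGFβ1 arm at 48 h was 17.9 times its own level at 0 h, against 3.02 times in untreated cells. Both ratios to 0 h cross file codes and were not tested.

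PDGFC (chr4:156760454-156971799, minus strand) encodes the CUB-domain ligand that is cut outside the cell. Untreated cells had 16.9, 19.3 and 17.3 TPM at 0 h, 15.7, 15.5 and 16.2 TPM at 8 h, 20.2, 23.3 and 20.7 TPM at 24 h and 23.8, 22.0 and 23.1 TPM at 48 h. TGFβ1-treated cells had 15.8, 20.5 and 17.6 TPM at 0 h, 29.6, 27.5 and 29.98 TPM at 8 h, 44.7, 57.8 and 48.9 TPM at 24 h and 74.8, 68.2 and 77.6 TPM at 48 h. Unlike PDGFA, PDGFC was highest at 48 h, and its arms did not overlap at 8, 24 or 48 h. The log2 difference was 0.89 (SE 0.0825) at 8 h, 1.26 (SE 0.0797) at 24 h and 1.61 (SE 0.0784) at 48 h. The step from 24 to 48 h in that difference, 0.35 (SE 0.112), missed the threshold with a limma voom adjusted p of 0.036, and passed it with 0.0025 when replicate 2 of the TGFβ1 arm at 24 h, the library with 57.8 TPM, was left out.

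**Figure D2:**
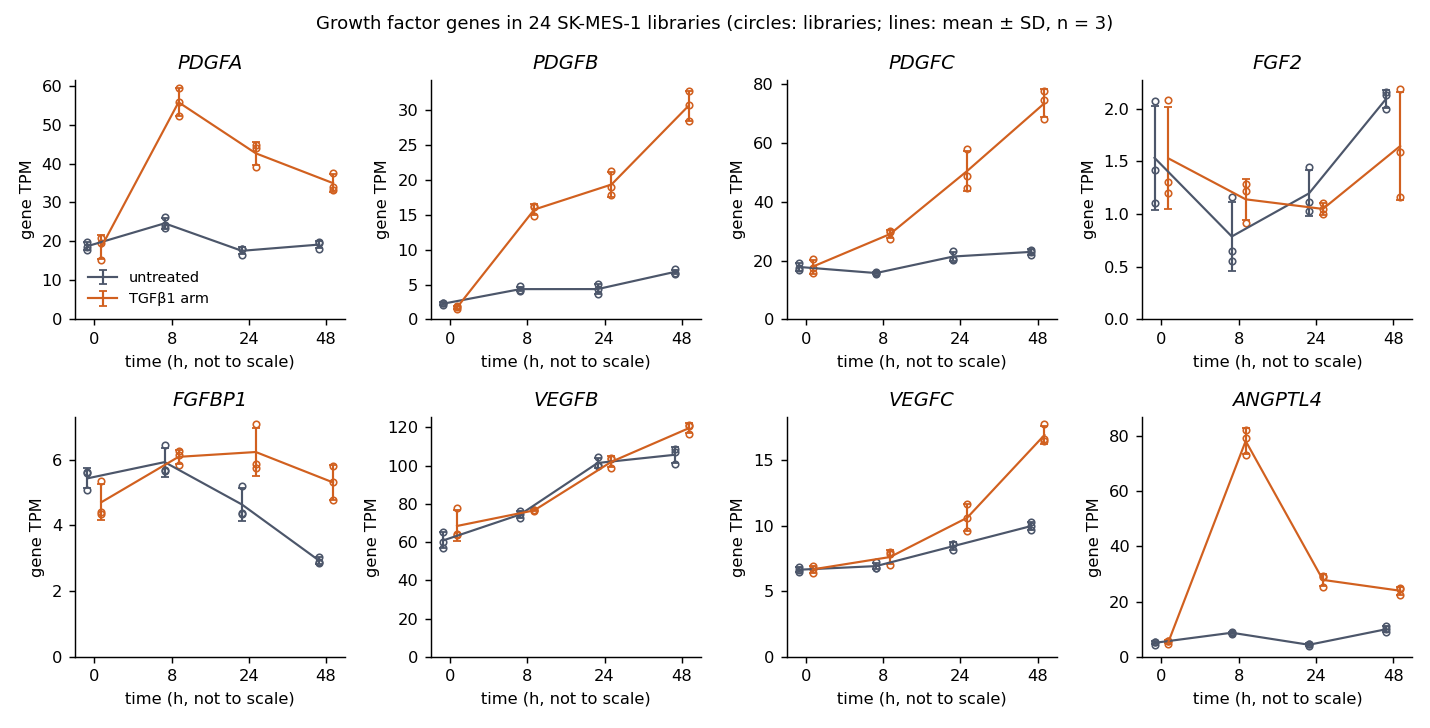
Gene TPM (vertical axis, from 0) of the 8 genes at 0, 8, 24 and 48 h (horizontal axis, evenly spaced) in untreated cells (grey) and in the TGFβ1 arm (orange), with circles for the 24 libraries and lines for the mean ± SD of 3 libraries. ANGPTL4 and PDGFA peaked at 8 h with TGFβ1 (78.1 and 55.7 TPM), and PDGFB and PDGFC were highest at 48 h (30.7 and 73.5 TPM). The VEGFB lines ran close together at 8 and 24 h, and at 48 h stood at 119 TPM with TGFβ1 and 106 TPM without.

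FGF2 (chr4:122826682-122898236, plus strand) had the lowest mean level of the members in every group. It was measured at 1.11, 1.42 and 2.08 TPM at 0 h, 0.550, 1.16 and 0.652 TPM at 8 h, 1.03, 1.44 and 1.12 TPM at 24 h and 2.13, 2.00 and 2.16 TPM at 48 h in untreated cells. The TGFβ1 arm gave 1.30, 1.2 and 2.08 TPM at 0 h, 0.919, 1.29 and 1.21 TPM at 8 h, 0.997, 1.04 and 1.10 TPM at 24 h and 2.19, 1.16 and 1.59 TPM at 48 h. The arms overlapped at every time. The log2 difference was 0.54 at 8 h with an approximate 95% interval from 0.02 to 1.05. It was -0.07 at 24 h (from -0.57 to 0.44) and -0.33 at 48 h (from -0.77 to 0.11). The limma voom adjusted p-values were 0.16, 0.87 and 0.26. Without adjustment the limma voom p at 8 h was 0.054, although the approximate interval there leaves out 0. Each group overlapped with the next in the order of their means, from 0.787 TPM in untreated cells at 8 h to 2.09 TPM in untreated cells at 48 h. NUDT6 lies antisense to the 3′ part of FGF2 over 9540 bases, and because a stranded protocol is not given in the sources used here, reads from both cannot be told apart where their exons overlap. Non-coding genes likewise lie antisense to parts of PDGFB, PDGFC and VEGFC.

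FGFBP1 (chr4:15935577-15938740, minus strand), the carrier that frees FGF2 from the matrix, differed late. Untreated libraries held 5.08, 5.61 and 5.6 TPM at 0 h, 5.67, 6.43 and 5.67 TPM at 8 h, 5.2, 4.33 and 4.37 TPM at 24 h and 2.89, 3.04 and 2.85 TPM at 48 h. In the TGFβ1 arm FGFBP1 was at 4.35, 5.34 and 4.41 TPM at 0 h, 6.27, 6.15 and 5.84 TPM at 8 h, 7.08, 5.87 and 5.74 TPM at 24 h and 4.78, 5.32 and 5.82 TPM at 48 h. The groups overlapped at 0 and 8 h and were separate at 24 and 48 h, where the untreated level was the lower one. The log2 difference was 0.09 (SE 0.0919, adjusted p = 0.53) at 8 h, 0.45 (SE 0.0995, adjusted p = 0.0010) at 24 h and 0.87 (SE 0.116, adjusted p = 2.4e-06) at 48 h in limma voom. The call at 24 h was lost when replicate 1 of the TGFβ1 arm at 24 h was left out (log2 difference 0.35, adjusted p = 0.010) and when only the 24 h libraries entered the fit (adjusted p = 0.035).

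VEGFB (chr11:64234584-64239264, plus strand) had the highest mean level of the members in every group but the TGFβ1 arm at 8 h, where ANGPTL4 was slightly higher (78.1 against 76.6 TPM). Untreated levels were 60.1, 65.3 and 57.0 TPM at 0 h, 72.7, 76.1 and 74.4 TPM at 8 h, 99.6, 100.04 and 104 TPM at 24 h and 109, 101 and 107 TPM at 48 h. TGFβ1-treated libraries had 77.8, 64.0 and 63.4 TPM at 0 h, 76.8, 76.6 and 76.2 TPM at 8 h, 104, 98.7 and 104 TPM at 24 h and 120.5, 121 and 117 TPM at 48 h. At 48 h the mean was 1.74 times the 0 h level in untreated cells and 1.75 times in the TGFβ1 arm. These ratios cross file codes and were not tested. The 3 TGFβ1 libraries lay above the untreated ones narrowly at 8 h and more clearly at 48 h. The log2 difference was 0.14 at 8 h (interval -0.07 to 0.34), 0.02 at 24 h (-0.18 to 0.22) and 0.25 at 48 h (0.05 to 0.46), with a limma voom adjusted p of 0.40, 0.91 and 0.052. With only the 48 h libraries in the fit the difference was 0.26 and the adjusted p was 0.00038.

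VEGFC (chr4:176683538-176792922, minus strand) stood well below VEGFB in each library. Untreated libraries had 6.60, 6.87 and 6.46 TPM at 0 h, 6.76, 7.21 and 6.79 TPM at 8 h, 8.57, 8.12 and 8.63 TPM at 24 h and 9.67, 9.95 and 10.3 TPM at 48 h. The TGFβ1 arm had 6.42, 6.91 and 6.67 TPM at 0 h, 7.99, 7.03 and 7.80 TPM at 8 h, 11.6, 10.6 and 9.58 TPM at 24 h and 17.7, 16.6 and 16.4 TPM at 48 h. The arms overlapped up to 8 h, separated at 24 h and were farthest apart at 48 h. The log2 difference was 0.20 (SE 0.0693, adjusted p = 0.037) at 8 h, 0.34 (SE 0.0665, adjusted p = 0.00032) at 24 h and 0.78 (SE 0.0630, adjusted p = 1.5e-09) at 48 h in limma voom. The call at 24 h was lost with only the 24 h libraries in the fit (adjusted p = 0.031).

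ANGPTL4 (chr19:8363289-8374370, plus strand) had the largest difference of the 8 genes at 8 and 24 h. It was measured in untreated cells at 5.50, 4.41 and 5.21 TPM at 0 h, at 8.75, 8.30 and 9.08 TPM at 8 h, at 4.63, 3.74 and 4.68 TPM at 24 h and at 9.99, 11.1 and 8.92 TPM at 48 h. With TGFβ1 it was measured at 5.71, 4.73 and 5.77 TPM at 0 h, at 82.3, 79.1 and 73.0 TPM at 8 h, at 29.2, 25.4 and 29.0 TPM at 24 h and at 25.0, 22.3 and 24.4 TPM at 48 h. The arms overlapped at 0 h, and afterwards the lowest TGFβ1 library, with 22.3 TPM, was still above the highest untreated one, with 11.1 TPM. Mean TPM was 8.97-fold higher with TGFβ1 at 8 h, 6.40-fold at 24 h and 2.39-fold at 48 h, and at 8 h it was 14.5 times the level of the same arm at 0 h. By mean level the TGFβ1 groups at 48, 24 and 8 h were each separate from the next below, untreated cells at 8 and 48 h overlapped, and so did neighbours among the 3 lowest groups. On the log2 scale of the fit the differences were 3.23 (SE 0.106), 2.72 (SE 0.131) and 1.30 (SE 0.114), with limma voom adjusted p-values of 1.6e-15, 3.8e-13 and 5.2e-09.

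Because 0 and 8 h share a file code within an arm, the change between them was examined next. In untreated cells, with no added factor, PDGFA rose by 0.33, PDGFB by 1.06 and ANGPTL4 by 0.75 on the log2 scale, whereas FGF2 fell by 1.07 (SE 0.254, adjusted p = 0.0023). The limma voom adjusted p-values of the 3 genes that rose were 0.00016, 1.2e-06 and 0.00023. Of all tested genes 13.2% rose and 12.7% fell over these hours without treatment. In the TGFβ1 arm PDGFA rose by 1.53, PDGFB by 3.33, PDGFC by 0.61, FGFBP1 by 0.36 and ANGPTL4 by 3.94, and 0 members fell, against 17.5% of all tested genes that rose and 16.3% that fell. The FGFBP1 call (adjusted p = 0.0057) was lost without replicate 1 or 3 at 0 h or replicate 1 or 2 at 8 h of that arm (adjusted p from 0.019 to 0.038), and with DESeq2 (adjusted p = 0.011). The FGF2 call was lost without untreated replicate 3 at 0 h (-0.79, adjusted p = 0.021), replicate 1 at 8 h (-0.93, adjusted p = 0.016) or replicate 3 at 8 h (-1.02, adjusted p = 0.013), and VEGFB in the TGFβ1 arm (0.26, adjusted p = 0.055) was called without replicate 1 at 0 h (0.41, adjusted p = 0.0013).

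The arm difference at 8 h minus that at 0 h removes an offset between the arms that is the same at both times. It was 1.21 (SE 0.0812) for PDGFA, 2.27 (SE 0.174) for PDGFB, 0.70 (SE 0.120) for PDGFC and 3.19 (SE 0.186) for ANGPTL4, and these 4 genes passed with limma voom adjusted p-values of 0.00025 or lower. Of all tested genes 5.05% were called higher and 2.84% lower in this test. FGFBP1 at 0.28 (adjusted p = 0.25), FGF2 at 0.50 (adjusted p = 0.45), VEGFC at 0.16 (adjusted p = 0.41) and VEGFB at 0.02 (adjusted p = 0.96) did not pass.

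**Figure D3:**
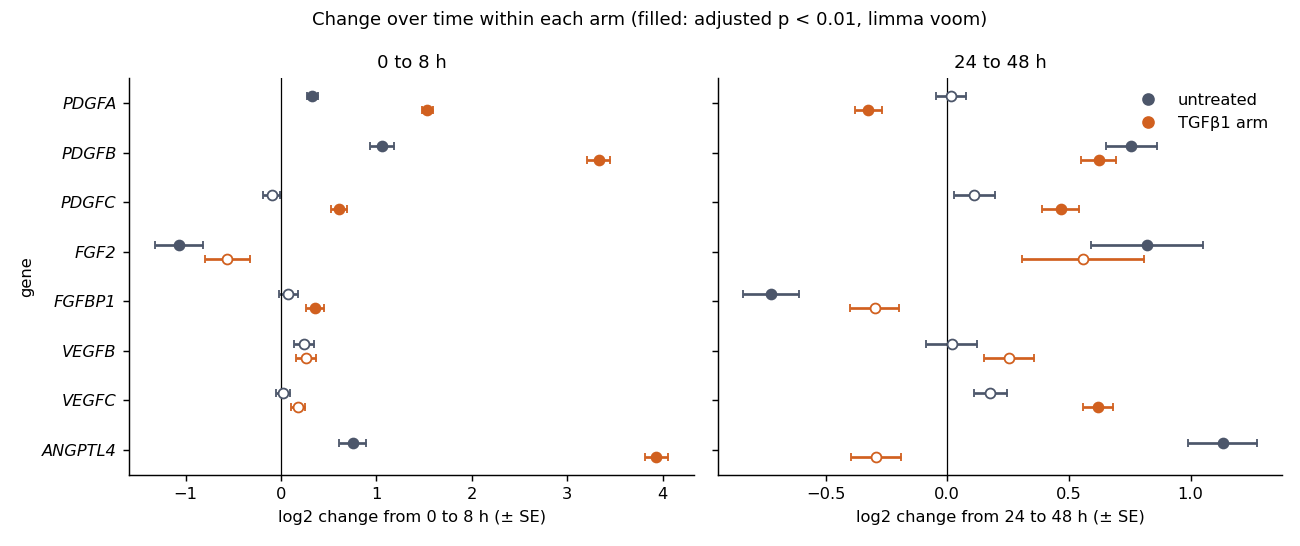
Log2 change (horizontal axis, ± SE of the fit) of each gene (vertical axis) from 0 to 8 h (left) and from 24 to 48 h (right) in untreated cells (grey) and in the TGFβ1 arm (orange), each within 1 file code, with filled symbols for an adjusted p below 0.01. From 0 to 8 h ANGPTL4 moved by 0.75 in untreated cells and by 3.94 with TGFβ1, and from 24 to 48 h by 1.13 and by -0.29.

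From 24 to 48 h the members went different ways. In untreated cells PDGFB rose by 0.76, FGF2 by 0.82 and ANGPTL4 by 1.13, while FGFBP1 fell by 0.72 (-0.23 when scaled to 3 reference genes, adjusted p = 0.12), against 14.7% of all tested genes that rose and 13.6% that fell. With TGFβ1 PDGFB rose by 0.62, PDGFC by 0.47 and VEGFC by 0.62, and PDGFA fell by 0.33 (SE 0.0547, limma voom adjusted p = 7.3e-05) but turned to 0.19 when scaled to the 3 reference genes (adjusted p = 0.0040), against 12.4% of all tested genes that rose and 13.4% that fell. The FGF2 call (adjusted p = 0.0076) was lost without any one of the 6 untreated libraries at 24 and 48 h (0.74 to 0.92, adjusted p from 0.011 to 0.040) and with edgeR's quasi-likelihood test (adjusted p = 0.011). ANGPTL4 in the TGFβ1 arm (-0.29, adjusted p = 0.028, or 0.22 with the 3 reference genes) was called when replicate 2 of that arm at 0 h was left out (adjusted p = 0.0058).

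The difference between the arms itself changed for 3 members over these hours. For ANGPTL4 it shrank by 1.42 (log2 change -1.42, SE 0.173, limma voom adjusted p = 6e-06), with a called rise in untreated cells and no called change in the TGFβ1 arm. For PDGFA it shrank as well (-0.34, SE 0.0819, adjusted p = 0.0062), and for VEGFC it grew (0.44, SE 0.0916, adjusted p = 0.0020). Of all tested genes 3.5% were called higher and 5.61% lower in this test. The PDGFA call was lost without any one library at 24 or 48 h other than replicate 2 of the TGFβ1 arm at either time (-0.35 to -0.31, adjusted p from 0.010 to 0.021), and on the log2(TPM + 1) scale (-0.40, adjusted p = 0.043). Between 8 and 24 h, across file codes, limma voom, edgeR and DESeq2 each called 0 members. Of all tested genes limma voom called 4.14% higher and 2.54% lower. An unadjusted p below 0.05 in limma voom was found for 4120 of all 17453 tested genes, among them PDGFB, PDGFC, FGFBP1 and ANGPTL4. Of these 4, the changes were -0.50 for ANGPTL4 (adjusted p = 0.059), 0.42 for PDGFB (adjusted p = 0.044), 0.36 for FGFBP1 (adjusted p = 0.10) and 0.37 for PDGFC (adjusted p = 0.039), which was called without replicate 1 of the TGFβ1 arm at 24 h (0.46, adjusted p = 0.0058).

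Time courses of the members were compared by the Pearson correlation of mean log2 CPM (counts scaled to library size) over the 8 groups, a description over few points that share arms, times and file codes. PDGFA was most like ANGPTL4 (r = 0.954), and PDGFC was most like VEGFC (0.912) and PDGFB (0.899). VEGFB and VEGFC followed each other with 0.890, although only VEGFC was called. FGF2 ran against FGFBP1 with -0.635. Among 13566 protein-coding genes, the closest to PDGFA were P2RY2 (0.991) and TFIP11 (0.99), to PDGFB FHL3 (0.995) and ZBED4 (0.994), and to PDGFC ACVR1 (0.996) and DRAXIN (0.994). The closest to FGF2 were SSH1 (0.955) and MAFF (0.947), to FGFBP1 NOX5 (0.974) and KPNA7 (0.971), to VEGFB RSPH9 (0.995) and KDM5B (0.991), to VEGFC ADAMTS7 (0.993) and ZNF496 (0.992), and to ANGPTL4 MTMR1 (0.99) and ANKH (0.986). Several of these were only near 1 TPM, such as NOX5 with 0.755 to 1.15 TPM.

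Transcripts of PDGFA differ at the 3′ end of the coding region, where an alternative exon gives the long form with a basic tail that is known to hold PDGF on the cell surface and matrix. PDGFA-203 (588 coding bases) lacks that exon, and PDGFA-201 (633 coding bases) ends in it. The 53 coding bases at chr7:500447-500499, minus strand, GRCh38, that are in PDGFA-201 and not in PDGFA-203 read, 5′ to 3′:
PDGFA-201: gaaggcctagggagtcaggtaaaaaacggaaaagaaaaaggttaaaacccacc
The short form made up most of PDGFA in every group, from 60.6% ± 3.55 (SD, n = 3) of the gene TPM in untreated cells at 48 h to 74.7% ± 12.7 in the TGFβ1 arm at 0 h. The share of PDGFA-201 was 16.1% ± 2.64 in untreated cells at 48 h and 8.58% ± 1.99 in the TGFβ1 arm, with untreated libraries from 13.2% to 18.2% and TGFβ1 libraries from 6.29% to 9.76%. At 8 h the 2 shares were 12.3% ± 2.37 and 11.5% ± 0.307 and overlapped. These shares are kallisto's estimates and were not tested. By estimated counts in place of TPM the 48 h shares were 11.2% and 5.61%.

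VEGFB has 2 protein forms, of which the shorter binds heparin and the longer is soluble. VEGFB-201 (621 coding bases) holds 101 coding bases at chr11:64237420-64237520, plus strand, that VEGFB-202 (564 coding bases) lacks.
VEGFB-201: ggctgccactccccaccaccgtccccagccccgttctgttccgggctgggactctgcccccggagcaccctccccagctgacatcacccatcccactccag
VEGFB-201 took from 34.8% ± 7.94 to 45.9% ± 1.79 of the gene TPM and VEGFB-202 from 24.8% ± 2.51 to 31.8% ± 3.17. VEGFB-204, a transcript annotated with a retained intron, took from 26.8% ± 6.71 to 37.4% ± 13.7. At 48 h VEGFB-201 ran from 40.5% to 42.0% in untreated libraries and from 44.2% to 47.7% in TGFβ1 libraries, without overlap. Of PDGFB, PDGFB-201 held from 52.2% ± 3.50 to 72.0% ± 2.97, and in the TGFβ1 arm at 24 h it ran from 67.9% to 71.1%, above the untreated range of 50.8% to 54.3%. The ranges were also separate at 8 h (68.7% to 74.3% against 59.9% to 62.0%) and at 48 h (69.1% to 76.6% against 59.4% to 64.8%). At 0 h the means were apart too (66.8% ± 18.1 against 52.2% ± 3.50), though less than at 24 h, with ranges that overlapped. The main PDGFC transcript, PDGFC-201, is annotated as a target of nonsense-mediated decay in GENCODE 44 and carried from 54.2% ± 3.21 to 64.1% ± 4.11 of the gene TPM, against 17.7% ± 2.18 to 22.7% ± 1.78 for the coding PDGFC-202. FGF2-201 carried from 48.2% ± 6.05 to 75.3% ± 23.1 of FGF2. VEGFC-202 and ANGPTL4-201 made up at least 98.1% and 85.8% of their genes in each group. The separate ranges named here are single examples, without a count over all transcripts and times, and were not tested.

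**Figure D4:**
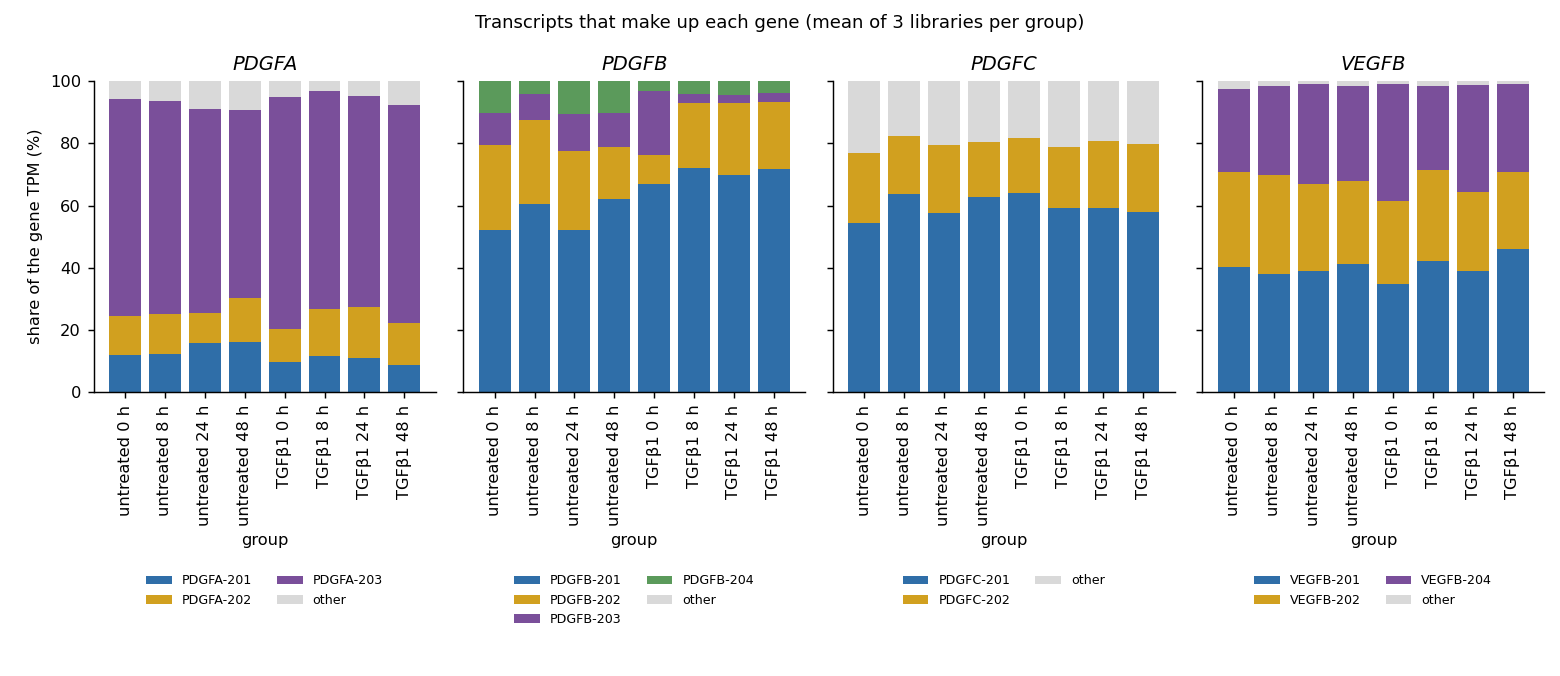
Share of the gene TPM in percent (vertical axis, from 0) held by the main transcripts of PDGFA, PDGFB, PDGFC and VEGFB, with all others in light grey, in the 8 groups (horizontal axis), as the mean of 3 libraries. PDGFA-201 is smaller in the TGFβ1 arm at 48 h (8.58%) than in untreated cells (16.1%), and PDGFB-201 is larger in the TGFβ1 arm at 24 h (70.0% against 52.2%) and also at 0 h (66.8% against 52.2%).

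All 13 receptor and co-receptor genes listed for these ligands were tested, and in the overall test 6 were higher and 6 lower in the TGFβ1 arm. Among all tested genes 21.0% were higher and 21.5% lower. Scaling to 3 reference genes put the median of all genes in that test at 0.25 in place of -0.02, so that list genes with smaller differences depend on the scaling in their direction. Of the PDGF receptors, PDGFRB was at 21.1 ± 0.453 TPM with TGFβ1 and at 5.28 ± 0.596 TPM without at 48 h, after 2.58 ± 0.377 and 2.17 ± 0.350 TPM at 0 h (log2 difference 2.26, SE 0.0723). PDGFRA was lower at 8 h (5.01 ± 0.188 against 6.00 ± 0.178 TPM) and by 0.39 on the log2 scale on average, and the PDGFR-like gene PDGFRL by 0.22. At 48 h the counts of PDGFRA gave -0.39 while its mean TPM was 10.7 in both arms. FGFR1, the most abundant FGF receptor kinase here, was at 60.6 ± 1.22 against 45.0 ± 0.920 TPM at 48 h. FGFR3 (0.91 on average), FGFR4 (0.56) and the decoy receptor FGFRL1 (0.43) were higher too, while FGFR2 was lower by 1.69 on average, from group means of at most 1.08 TPM. The VEGF receptor kinases were scarce. FLT1 stayed at or below 0.257 TPM and KDR at or below 0.323 TPM in every group, and FLT4 was at 1.5 ± 0.0750 TPM with TGFβ1 and at 2.53 ± 0.242 TPM without at 48 h. FLT1 and FLT4 were called lower and KDR was not called (adjusted p = 0.043). Of the neuropilins, which act as VEGF co-receptors, NRP2 reached 233 ± 5.71 TPM at 48 h against 44.5 ± 1.45 TPM (log2 difference 2.51, SE 0.0433), and NRP1 was at 118 ± 4.23 against 158 ± 2.45 TPM.

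**Figure D5:**
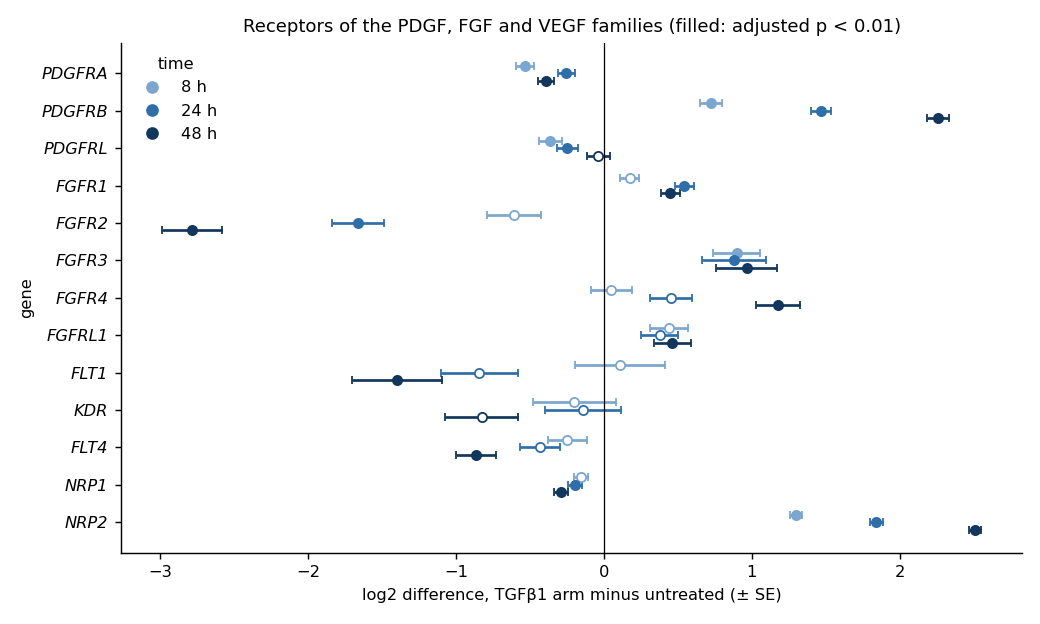
Log2 difference between the TGFβ1 arm and untreated cells (horizontal axis, ± SE of the fit) of the 13 receptor genes (vertical axis) at 8, 24 and 48 h, with filled symbols for an adjusted p below 0.01. NRP2 and PDGFRB lie farthest to the right at 48 h (2.51 and 2.26) and FGFR2 farthest to the left (-2.79).

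Of 24 other listed genes of the 3 ligand families, a list that does not include VEGFA, 17 had enough reads. Of these, 2 were higher and 4 lower in the overall test, against 21.0% higher and 21.5% lower among all tested genes. FGF1, the acidic FGF that binds all FGF receptors, stood at 1.69 ± 0.426, 4.55 ± 0.455 and 8.93 ± 1.08 TPM at 8, 24 and 48 h in the TGFβ1 arm and at 1.35 ± 0.0706 TPM in untreated cells at 48 h. This was a log2 difference of 2.94 (SE 0.0858, limma voom adjusted p = 7e-17) at 48 h. FGF11 and FGF13 both encode intracellular FGF-like proteins. FGF11 was higher by 0.36 on average, and FGF13 was lower by 0.48, along with PDGFD, FGF9 and FGF17. The median of the 17 genes was -0.20, against -0.02 for all tested genes.

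Of 11 genes for proteases and heparan sulfate enzymes that process or free these ligands, 9 passed the overall test. That test called 21.0% of all tested genes higher and 21.5% lower. FURIN, PCSK5, PLAT and PLAU were higher and 3 genes lower, whereas SULF2 was called higher at 8 h (0.35) and lower at 24 h (-0.24), and ADAMTS3 lower at 8 h (-0.26) and higher at 48 h (0.27). PLAU, the urokinase-type plasminogen activator that is known to activate PDGF-D, was at 488.5 ± 6.48 TPM with TGFβ1 and 93.5 ± 1.42 TPM without at 48 h, and FURIN, which cuts the A and B chains and VEGFC, was at 163 ± 5.61 against 71.6 ± 1.14 TPM. PLAT, the tissue-type activator that cuts the CUB domain off PDGF-C and was singled out here for that role, was at 52.0 ± 1.89 against 27.4 ± 0.177 TPM. HPSE, the heparanase, was lower, with 5.85 ± 0.306 against 19.5 ± 1.37 TPM. Of 12 tested FGF carriers and heparan sulfate proteoglycans 2 were higher and 6 lower. The cell-surface proteoglycan SDC1 was at 106 ± 5.74 against 48.4 ± 0.852 TPM at 48 h and GPC6 at 36.1 ± 1.01 against 6.60 ± 0.237 TPM, whereas SDC4 was at 47.4 ± 0.550 against 116 ± 1.52 TPM.

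ANGPTL4 is a known target of PPAR receptors and of the hypoxia response, and the lists for both are given beside it. Whether either has a part in its difference between the arms was not tested. Of 8 tested PPAR target genes 0 were higher and 5 lower in the overall test, among them CPT1A (-0.46), PLIN2 (-0.36) and CPT2 (-0.33), all with roles in lipid use or storage. Of 10 hypoxia genes 2 were higher and 5 lower. The glucose transporter gene SLC2A1 was higher by 0.79, and the carbonic anhydrase gene CA9 and the prolyl hydroxylase gene EGLN3 were lower by 1.85 and 1.25 on average. Of the 5 tested genes on a list of angiopoietin and angiopoietin-like genes with LPL, the lipoprotein lipase gene, 0 were higher and 2 lower. Among the lower ones, ANGPT1 was at 10.7 ± 1.16 TPM in the TGFβ1 arm and 22.2 ± 1.37 TPM in untreated cells at 48 h. For each of these lists, the share among all tested genes was 21.0% higher and 21.5% lower.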

How the data were processed

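RNA-Seq libraries of SK-MES-1 cells were quantified by the authors with kallisto 0.43.0 against Ensembl transcripts of GRCh38, and 1 table per library was deposited, with replicates not pooled. The deposited estimated counts are expected reads per transcript, neither normalized nor whole. The deposited TPM values are these counts corrected for effective length and scaled to 1 total. Effective lengths deposited by the authors served only for length-scaled counts in an alternative.

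Transcripts were assigned to genes with GENCODE release 44 on the identifier without version. The 155518 of 173259 transcripts (89.8%) with a gene carried 94.82% to 95.18% of the counts of a library, and the others were left out. Gene sums of estimated counts were rounded, and a gene entered the test if 3 or more libraries held 10 or more. The test was limma 3.58.1 in R 4.3.3 (voom, TMM factors from edgeR 4.0.16, 1 mean per group, all 24 libraries). The study's methods name limma voom without contrasts. A call is an adjusted p below 0.01 (Benjamini-Hochberg over all 17453 tested genes). Intervals are normal 95% intervals of the fit. The tests were checked on simulated counts. Alternatives were edgeR's quasi-likelihood test, DESeq2 1.42.0, DESeq2 size factors, library totals, other filters, length-scaled counts, limma on TPM with a pseudocount of 1 or 0.1 on the log2 scale, a replicate block, fits on the compared time points only, unmatched transcripts kept and each library left out. Scaling to 3 reference genes (GUSB, HPRT1 and GAPDH) was chosen after seeing the data, in place of a planned scaling that is not reported here.

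The 8 members, the gene lists and the rule for named genes were chosen with earlier results of these data known. Named are all members and all listed receptors, from the other lists up to 3 genes with the largest mean difference among those past the overall test and at 1 TPM or more in some group, and for each member the 2 protein-coding genes most like it. PLAT and other genes named as called in a list were named after their values were seen. P-values set a difference against the spread between replicate libraries within groups. They do not cover differences between file codes or between cell lines. Depth, from 46613589 to 77964234 estimated counts, limits FGFBP1, PDGFB and FGF2 most, with as few as 114, 130.0 and 144 estimated counts in a library. Promoter windows are RefSeq sequences on GRCh38.p14, and coding stretches were read from GRCh38. Plots were made with matplotlib 3.10.9 in Python 3.11.15.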

Additional observations from a re-analysis of the deposited data

Results flagged for a closer look

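For 3 of the 8 genes, the difference between the arms changed from 24 to 48 h by a test of that change itself. It shrank for ANGPTL4 (-1.42 on the log2 scale, SE 0.173, limma voom adjusted p = 6e-06), where the 3 untreated libraries went from a highest value of 4.68 TPM at 24 h to a lowest value of 8.92 TPM at 48 h. It shrank for PDGFA (-0.34, SE 0.0819, adjusted p = 0.0062), where the TGFβ1 libraries went from a lowest value of 39.2 TPM to a highest value of 37.7 TPM. It grew for VEGFC (0.44, SE 0.0916, adjusted p = 0.0020), where the TGFβ1 libraries went from a highest value of 11.6 TPM to a lowest value of 16.4 TPM. Of all tested genes 3.5% were called higher and 5.61% lower in this test. The PDGFA call was lost in 14 of 37 other settings. The 2 time points share a file code within each arm.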

How the results depend on the processing

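Across 3552 repeats of the members' tests under other settings, 3435 kept their direction and their side of the threshold, 72 crossed the threshold and 45 turned in direction, 1 of a called value and 44 of values that were not called. Scaling to 3 reference genes, chosen after seeing the data, put the median of all genes at 0.35 at 24 h, 0.38 at 48 h, 0.49 from 24 to 48 h in untreated cells and 0.51 in the TGFβ1 arm. Under it 7 members in place of 4 were called from 24 to 48 h in untreated cells, 5 in place of 0 in the difference at 24 h minus that at 8 h, and VEGFB was called at 24 h (0.39) and 48 h (0.65). The change of PDGFA from 24 to 48 h in the TGFβ1 arm turned from -0.33 to 0.19 (adjusted p = 0.0040, limma voom), below that median, and it was lost on the log2(TPM + 1) scale (adjusted p = 0.021). In the difference at 24 h minus that at 8 h, log2(TPM + 1) called 1 member (ANGPTL4), and leaving out 1 library at a time gave 0 to 1. VEGFC at 48 h against 24 h was lost with only those time points (adjusted p = 0.020). With 3 reference genes FGFBP1 from 24 to 48 h in untreated cells (adjusted p = 0.12) was lost. FGF2 from 0 to 8 h in untreated cells was lost on the log2(TPM + 1) scale (adjusted p = 0.020). The causes were not tested.

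The turns of values not called were these, on the log2 scale. With 3 reference genes, from 24 to 48 h in the TGFβ1 arm, FGFBP1 turned from -0.30 to 0.21 and ANGPTL4 from -0.29 to 0.22. FGF2 turned to 0.30 at 24 h, 0.063 at 48 h and -0.0050 at 0 h, and VEGFB to 0.20 at 24 h minus 8 h. On the log2(TPM + 1) and log2(TPM + 0.1) scales PDGFA at 0 h turned to -0.027 and -0.029, FGF2 at 0 h to -0.0019 and -0.0012, FGF2 in the overall test to -0.023 and -0.0015, PDGFB at 48 h minus 24 h to 0.084 and 0.015, and VEGFB at 8 h minus 0 h to -0.12 in both. PDGFB at 48 h minus 24 h and VEGFB at 8 h minus 0 h turned to 0.0038 and -0.10 with length-scaled counts. With library totals, VEGFB turned to -0.076 at 24 h and -0.041 at 8 h minus 0 h, and FGF2 in the overall test to -0.039. VEGFB turned to -0.0011 at 24 h with at least 100 counts, and at 8 h minus 0 h to -3.2e-05 in edgeR and -0.012 in DESeq2. Leaving out 1 library at a time gave, at 0 h, -0.026 to 0.11 for PDGFA, -0.20 to 0.32 for FGF2, -0.036 to 0.26 for VEGFB and -0.081 to 0.25 for ANGPTL4. It gave -0.15 to 0.032 for FGF2 and -0.060 to 0.13 for VEGFB at 24 h, -0.044 to 0.12 for FGF2 in the overall test, -0.12 to 0.17 for VEGFB at 8 h minus 0 h, and, in untreated cells, -0.029 to 0.048 for VEGFB from 24 to 48 h and -0.012 to 0.044 for VEGFC from 0 to 8 h.

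Counts over all genes moved more. At 8 h 2859 genes were called, and 5304 with only those libraries. At 24 h 5112 were called, 2769 with only those libraries and 8776 with 3 reference genes. A replicate block left the number of members called in the overall test at 6 and changed no member's call. Same-numbered libraries of the arms correlated in their deviations by -0.06 to 0.25, with 4 of 12 pairs above 0.1, so that the numbers were not taken as pairs. With estimated counts in place of TPM 93 of 136 transcript shares moved by more than their SD, so the shares are the least firm values.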
